A study of Mus musculus with 6 samples.

Results

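The genes Id1, Id2, Id3, Id4, Msx1, Msx2 and Atoh8 are classical transcriptional targets of bone morphogenetic protein (BMP) signalling, and they were followed here through the regions of open chromatin that differed between mutant and wild-type fibroblasts. The members are these 7 genes of 21887 protein-coding genes, named for their known place downstream of SMAD proteins. No measured value defined them, but they were chosen with earlier results of these data known. The cells were mouse embryonic fibroblasts isolated at embryonic day 13.5, and their accessible chromatin was read by ATAC-seq, where a transposase inserts adapters wherever DNA is exposed. The wild-type group (Acvr1+/+) and the FOP mutant group (Acvr1R206H/+) had 3 libraries each, cells of both were grown in the same serum-containing medium, and the mutant carries 1 copy of the allele that causes fibrodysplasia ossificans progressiva, a disease of bone formation in soft tissue. The series' design text calls the libraries biological replicates; whether each came from a separate embryo is not stated there.

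The deposited lists hold the position and, by the name of the list, the direction of 2965 regions more accessible and 556 less accessible in mutant cells. They hold no value per library, so levels in single libraries, fold changes and replicate spread are not analysed here, the depth is unknown, and nothing below is a statistical test. In a bulk library, a change in the share of cells with an open site and a change of the site within each cell cannot be told apart. A region was linked to a gene when its midpoint lay inside the gene, or, for a midpoint outside every protein-coding gene, when that gene was the nearest and no more than 100 kb away. Positions are those of mouse genome build GRCm38. The labelled cell type could not be checked against marker levels. Among 12 fibroblast marker genes 4 had a linked more accessible region and 0 a less accessible one. Of 3 markers each of other cell types, less accessible regions were linked to 2 for blood, 1 for endothelium, 1 for neural cells and 0 for muscle and epithelium, and more accessible regions to 0 of these 15. Over all protein-coding genes 7.27% had a more accessible and 1.99% a less accessible link.

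BMP ligands bind type I and type II serine/threonine kinase receptors, and the type I receptors, among them ALK2 encoded by Acvr1, phosphorylate SMAD1, SMAD5 and SMAD9. These enter the nucleus with SMAD4 and bind GC-rich elements and short SMAD boxes near target genes. The Id genes encode helix-loop-helix proteins that lack a DNA-binding domain and hold E proteins and their partners off DNA. Msx1 and Msx2 encode homeodomain repressors of limb, tooth and skull development, and Atoh8 encodes a basic helix-loop-helix factor.

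Differential regions were linked to 5 of the 7 genes, and no gene had linked regions of both directions. More accessible regions were linked to Id3 (1 region), Msx2 (2 regions) and Atoh8 (1 region), and less accessible regions to Id2 (1 region) and Msx1 (1 region). Neither Id1 nor Id4 had a link, as was the case for 91.1% of all protein-coding genes. By these links, 1 or 2 regions a gene, Id3 and Id2 had opposite directions, as did Msx2 and Msx1. The wider counts within 500 kb did not show this split. Less accessible regions were the more numerous around both Id3 (2 more and 7 less accessible) and Id2 (0 and 2). More accessible ones were the more numerous around both Msx1 (7 and 1) and Msx2 (9 and 0). Of all listed regions 84.2% are more accessible, so the Msx pair had the direction of most regions. The shares of all genes with either direction the more numerous are not given here. Within 250 kb the Id pair kept the split, with 2 and 1 for Id3 and 0 and 2 for Id2. The Msx pair did not, with 5 and 1 for Msx1 and 8 and 0 for Msx2. With links limited to 10 kb only Id3 and Msx1 kept a link, and with all annotated genes competing no member did, so neither pair could then be compared. With links up to 100 kb, 7.27% of all protein-coding genes had a more accessible and 1.99% a less accessible link, and 0.366% had both. The shares of all genes with links limited to 10 kb, or with all annotated genes competing, are not given here. Every link of the 7 genes came from outside the gene. Apart from Atoh8, with a span of 29607 bp, the genes are short, from 1160 bp (Id1) to 5900 bp (Msx2), beside a median of 17169 bp over all genes. Links from outside the gene were found for 3.6% of all genes among more accessible regions and for 0.923% among less accessible regions. These shares are set side by side as a description.

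The map of regions around each gene shows how these links sit among the other listed regions. Filled symbols are close to the genes. Most symbols are open, either because another gene lies nearer or because no gene lies within 100 kb.

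**Figure D1:**
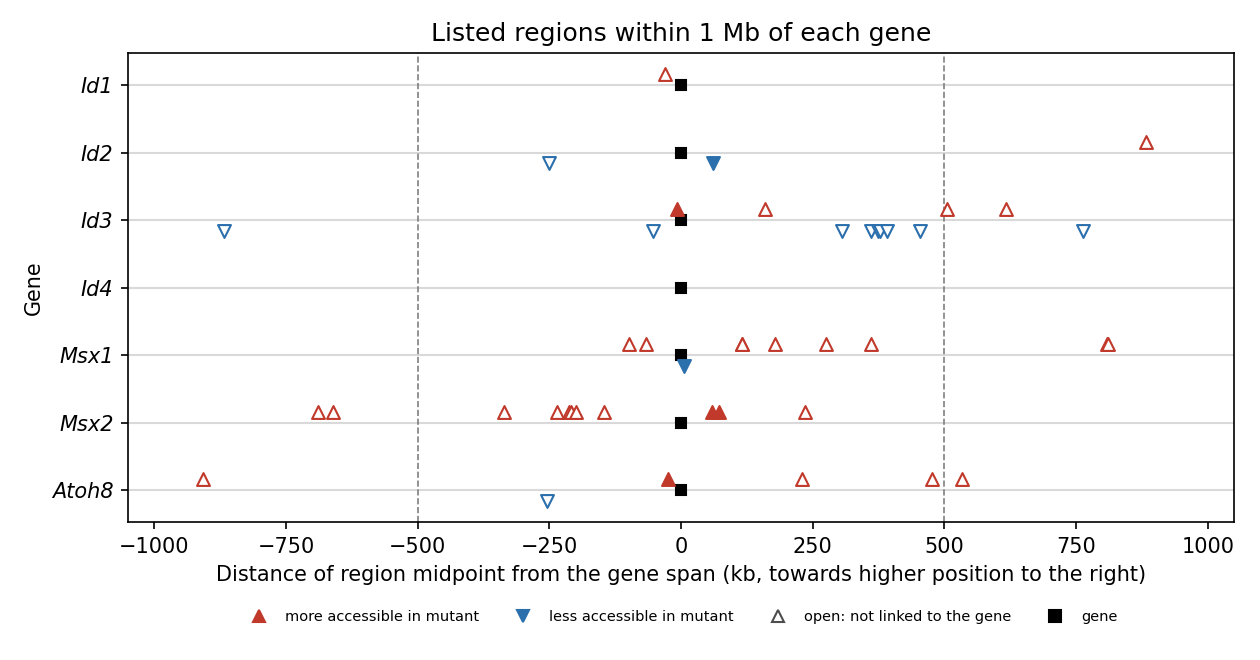
Listed regions within 1 Mb of the 7 genes, one row per gene, by the distance of the region's midpoint from the gene span in kb; red upward triangles are regions more accessible and blue downward triangles regions less accessible in mutant cells, filled where linked to the gene, and dashed lines mark 500 kb. Id4 has no symbol, Msx2 has only red symbols, as has Id1 with 1 symbol, and Id3 has 7 blue symbols within 500 kb.

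The immediate promoters were not among the listed regions. The set of RefSeq (GRCm38.p6) promoters used here held a start site for 6 of the 7 genes and had no entry for Id1. No listed region overlapped the 250 bases before or the 50 bases after any of these starts. The share of all promoters overlapped by a listed region was not counted, so this absence cannot be called particular to these genes. Only 6.94% of all genes had a listed region inside or within 10 kb. The 250 bases before the start are shown for both paralogue pairs that were split by direction, because these are the genes whose linked regions are set against each other. Capitals mark matches, on either strand, to the short SMAD element GTCT, to the GC-rich site GGCGCC or to its variant GGAGCC. The Id2 promoter is chr12:25096093-25096342 on the minus strand, that of Id3 is chr4:136143572-136143821 on the plus strand, that of Msx1 is chr5:37824586-37824835 on the minus strand, and that of Msx2 is chr13:53472781-53473030 on the minus strand.
Id2: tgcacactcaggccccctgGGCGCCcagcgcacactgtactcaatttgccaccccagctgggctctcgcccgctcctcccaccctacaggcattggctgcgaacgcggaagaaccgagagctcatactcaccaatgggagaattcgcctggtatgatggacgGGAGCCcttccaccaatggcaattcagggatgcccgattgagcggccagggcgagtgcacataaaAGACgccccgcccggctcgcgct
Id3: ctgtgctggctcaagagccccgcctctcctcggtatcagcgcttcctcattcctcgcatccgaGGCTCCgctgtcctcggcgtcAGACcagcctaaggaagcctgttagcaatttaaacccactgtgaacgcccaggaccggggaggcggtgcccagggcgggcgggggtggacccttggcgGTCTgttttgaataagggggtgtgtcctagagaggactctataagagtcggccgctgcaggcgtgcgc
Msx1: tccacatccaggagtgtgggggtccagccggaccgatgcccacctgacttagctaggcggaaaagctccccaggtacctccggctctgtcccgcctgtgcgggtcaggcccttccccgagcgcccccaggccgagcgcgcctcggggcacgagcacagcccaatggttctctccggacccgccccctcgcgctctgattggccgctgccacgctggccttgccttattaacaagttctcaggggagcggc
Msx2: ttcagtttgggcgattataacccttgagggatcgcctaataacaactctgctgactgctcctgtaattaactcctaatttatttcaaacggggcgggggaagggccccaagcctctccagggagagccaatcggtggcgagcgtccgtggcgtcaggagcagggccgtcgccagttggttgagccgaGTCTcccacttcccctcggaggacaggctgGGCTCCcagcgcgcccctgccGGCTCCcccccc
The promoters of Id2, Id3 and Msx2 each held 3 such matches, and that of Msx1 held 0. Of the single elements, GTCT matched at 1 place in Id2, 2 in Id3 and 1 in Msx2, GGCGCC at 1 in Id2, and GGAGCC at 1 each in Id2 and Id3 and 2 in Msx2. The promoter of Id4 held 1 GGCGCC and 1 GGAGCC, and that of Atoh8 held 0 of the 3 elements. Over 32851 RefSeq promoters of the same length, 82.9% held GTCT, 9.59% GGCGCC and 26% GGAGCC, so that a GTCT match was common to most promoters. The mean number of matches per promoter was 1.87 for GTCT, 0.113 for GGCGCC and 0.322 for GGAGCC. The share of all promoters with 3 or with 0 matches in total was not counted. An E-box (CANNTG), the element that E proteins bind, was present in 4 of the 6 promoters and in 66.2% of all promoters. The AP-1 element TGANTCA, the RUNX element TGTGGT and the homeodomain element TAATTG were found in 0 of the 6. Their shares over all promoters were 6.75%, 14% and 7.17%. Only the exact letters TAATTG were searched, and other sequences with TAAT, such as those in the Msx2 promoter, were not counted. The TEAD element GGAATG was found in 2 of the 6 (Id3 and Id4), beside 12.6% of all promoters. These are letter matches in short windows and do not locate any bound factor. GC content before the start ran from 61.6% in Msx2 to 75.6% in Id4, above the median of 52.4% over all promoters. The part of GC content in the motif counts was not tested.

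Id3 had the widest linked region of the set. The gene lies on chromosome 4 (136143822 to 136145392), and its more accessible region (136134299 to 136135834) lay 8.76 kb upstream of the start. At 1536 bp this region was wider than 99.7% of the more accessible list, whose median width was 572 bp. A less accessible region (136089771 to 136090262, 492 bp) lay 53.8 kb upstream and was linked to Rpl11, a ribosomal protein gene 36.6 kb from it. Both directions therefore occurred upstream of Id3 with no protein-coding gene between either region and Id3. The other more accessible region within 500 kb (136303771 to 136304551) lay 159 kb beyond the other end of the gene, past 4 genes, and was linked to Hnrnpr, which encodes an RNA-binding protein.

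The surroundings of Id3 belonged to the largest group of less accessible regions around any protein-coding gene. Within 500 kb there were 7 less accessible and 2 more accessible regions, that is 22.2% more accessible (exact 95% interval 2.81 to 60%), beside 84.2% (83 to 85.4%) over all 3521 listed regions. Only 17 genes (0.0777% of all) had at least 7 less accessible regions within 500 kb, and all 17 lay within 1 Mb of Id3, so they share 1 group of regions. Of the 7, 6 lay on the far side of Id3, from 305 to 453 kb past its end. In this group 4 lay inside Luzp1, whose product associates with actin, 1 inside Kdm1a, the histone demethylase LSD1, and 1 was linked to Htr1d, a serotonin receptor gene. Between Id3 and the nearest of these lay 6 protein-coding genes. With its own more accessible link, Id3 was 1 of 3 genes (0.0137%) that combined such a link with at least 7 less accessible regions, the others being its neighbours Hnrnpr and Ephb2. The threshold of 7 was chosen after the value of Id3 was seen. A further less accessible region, 763 kb from Id3 (136907808 to 136908258), was linked to C1qa, a complement gene used above as a blood marker; the part of other cell types in this group of regions was not tested.

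Id2 was surrounded by less accessible regions alone. The gene lies on chromosome 12 (25093799 to 25096092). Its linked region (25155284 to 25156048, 765 bp) lay 59.6 kb upstream of the start, with no protein-coding gene between, inside the annotated long non-coding RNA gene Gm36287. The other less accessible region (24843363 to 24844642) was 1280 bp wide, wider than 98.2% of its list. It lay 250 kb downstream inside Mboat2, an acyltransferase gene, with Kidins220 between. The nearest more accessible region was 883 kb away. Less accessible regions without any more accessible one within 500 kb were found around 10.9% of all genes, and 1 of the 7 members, Id2, had this pattern.

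Around Id1 and Id4 little was listed. Id1 (chromosome 2, 152736251 to 152737410) had 1 region within 1 Mb, a more accessible region of 888 bp (152705855 to 152706742). It lay 30 kb from Id1 inside H13, which encodes a signal peptide peptidase, with no complete protein-coding gene between, and so counted for H13. The nearest less accessible region was 1202 kb away. Id4 (chromosome 13, 48261116 to 48266028) had no listed region within 1 Mb; the nearest was a more accessible one at 1201 kb, and the nearest less accessible one lay at 3697 kb. The absence of any region within 500 kb was common, at 39.2% of all genes. The surroundings also differed in gene content, with 36 other protein-coding genes within 500 kb of Id1, 23 of Id3, 6 of Id2 and 3 of Id4, beside a median of 16 over all genes; the part of gene content in these counts was not tested.

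Msx1 had a less accessible region close to its start and more accessible regions farther out. The gene lies on chromosome 5 (37820491 to 37824585), and the less accessible region (37829939 to 37830856, 918 bp) lay 5.81 kb upstream of the start, inside the long non-coding RNA gene Gm33993. It was the closest region to any of the 7 genes and the sole less accessible region within 1 Mb of Msx1. Within 500 kb there were 7 more accessible regions. A pair of these lay downstream at 66.5 and 99.4 kb and were linked to Cytl1, a cytokine-like gene of cartilage, and Stk32b, a kinase gene. The other 5 lay upstream at 115, 116, 178, 275 and 360 kb. Of these, 4 were linked to Stx18, a syntaxin gene, and the most distant to Zbtb49, a zinc finger gene. The regions at 115 and 116 kb (37938963 to 37939396 and 37939985 to 37940635) were 588 bp apart. They were linked to Stx18, 97.5 and 96.4 kb away, with no protein-coding gene between them and Msx1. The widest of the 7, at 1373 bp (37753294 to 37754666), exceeded 99.2% of its list. Upstream of Msx1, the genes Stx18, Nsg1, Zbtb49 and Lyar each had at least 9 more accessible regions within 500 kb. A count of at least 7 more accessible regions was reached by 0.987% of all genes. Only 13 genes (0.0594%) combined it with a linked less accessible region, and these lay on 9 chromosomes; the combination was defined after the values of Msx1 were seen.

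Msx2 was surrounded by more accessible regions alone, as was Id1 with its 1 region. Of all listed regions 84.2% are more accessible, and 74.5% of all genes had no less accessible region within 500 kb. The share of genes with more accessible regions alone is not given here. The gene lies on chromosome 13 (53466881 to 53472780), and its linked regions (53530701 to 53531342, 642 bp, and 53544084 to 53544602, 519 bp) lay 58.2 and 71.6 kb upstream of the start, 12.7 kb apart. The first lay inside the long non-coding RNA gene Gm34022. A further more accessible region (53708507 to 53709517, 1011 bp) lay 236 kb upstream, beyond the limit for a link, and Msx2 was its nearest protein-coding gene. On the other side 6 more accessible regions lay 146 to 336 kb downstream, of which 5 were inside Ror2, a WNT5A receptor gene, and 1 was linked to Sptlc1, a gene of sphingolipid synthesis. The genes Sptlc1 and Gm38564 lay between all 6 and Msx2. The 9 regions within 500 kb are a count reached by 0.251% of all genes, although only 4 other protein-coding genes lay in that window. The neighbours Ror2, Sptlc1 and Gm38564 also had at least 9 more accessible regions within 500 kb, so this count was not particular to Msx2. At least 2 linked more accessible regions were found for 2.07% of all genes. The nearest less accessible region was 1504 kb from Msx2, against 5.81 kb from Msx1.

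Atoh8 differed from the others in the side of its link. The gene lies on chromosome 6 (72206174 to 72235780) on the minus strand. Its more accessible region (72181042 to 72181508) was 467 bp wide, the narrowest of the linked regions, and lay 24.9 kb past the end of the gene and 54.3 kb from the start. The other more accessible regions within 500 kb were wider, at 1162 and 1126 bp. They lay 230 kb upstream, linked to Mat2a, a gene of S-adenosylmethionine synthesis, and 476 kb upstream, inside Tcf7l1, which encodes a transcription factor of the WNT pathway. The sole less accessible region within 1 Mb (71952350 to 71952817) lay 254 kb downstream inside Polr1a, the gene of the large RNA polymerase I subunit.

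The linked regions were mostly upstream and at a distance from the start. Of the 6 linked regions 5 lay upstream (83.3%), the exception being that of Atoh8, while 55.5% of 875 outside links lay upstream over all genes with a known strand. Their median distance from the gene was 41.6 kb, beside 28.3 kb over those 875 links. Of the 6, those of Msx1 and Id3 lay within 10 kb (33.3%), beside 24.8% of those 875 links. Counted by gene, 6.94% of all genes had a listed region inside or within 10 kb, Msx1 and Id3 among them. A long non-coding RNA gene held or lay nearer to each of the 6 than the member did. With all annotated genes competing for links, 0 of the 6 remained with a member, and over all genes 39.1% of 1160 outside links remained with their gene. For 6 of the 7 genes some region lay within 100 kb, which held for 22.2% of the 21631 genes on chromosomes with a listed region, span included. In the order of distance, Msx1 (5.81 kb) and Id3 (8.76 kb) came first, then Atoh8 (24.9 kb), Id1 (30 kb), Msx2 (58.2 kb), Id2 (59.6 kb) and Id4 (1201 kb). The nearest region was less accessible for Msx1 and Id2 and for 29.5% of all genes.

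Counted over all 7 genes, 33 regions lay within 500 kb, 22 more accessible and 11 less accessible. The more accessible share was 66.7% (exact 95% interval 48.2 to 82%), and the intervals cover counting error only, since neighbouring regions are not independent. Most of the difference from the 84.2% of all regions sat at Id3: without it the share was 83.3% (62.6 to 95.3%, 20 of 24 regions). By family, the Id genes had 3 more and 9 less accessible regions, of which Id3 alone had 2 and 7. The Msx genes had 16 and 1. The more accessible share was 25% (5.49 to 57.2%) for the Id genes and 94.1% (71.3 to 99.9%) for the Msx genes. The 84.2% of all regions lay inside the Msx interval and above the Id interval. Of the 22 more accessible regions 4 were linked to a member and 8 lay inside another gene, and of the 11 less accessible ones 2 were linked and 7 lay inside another gene. More accessible regions were found within 500 kb of 5 of the 7 genes (49.9% of all genes) and less accessible regions of 4 (25.5% of all genes).

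**Figure D2:**
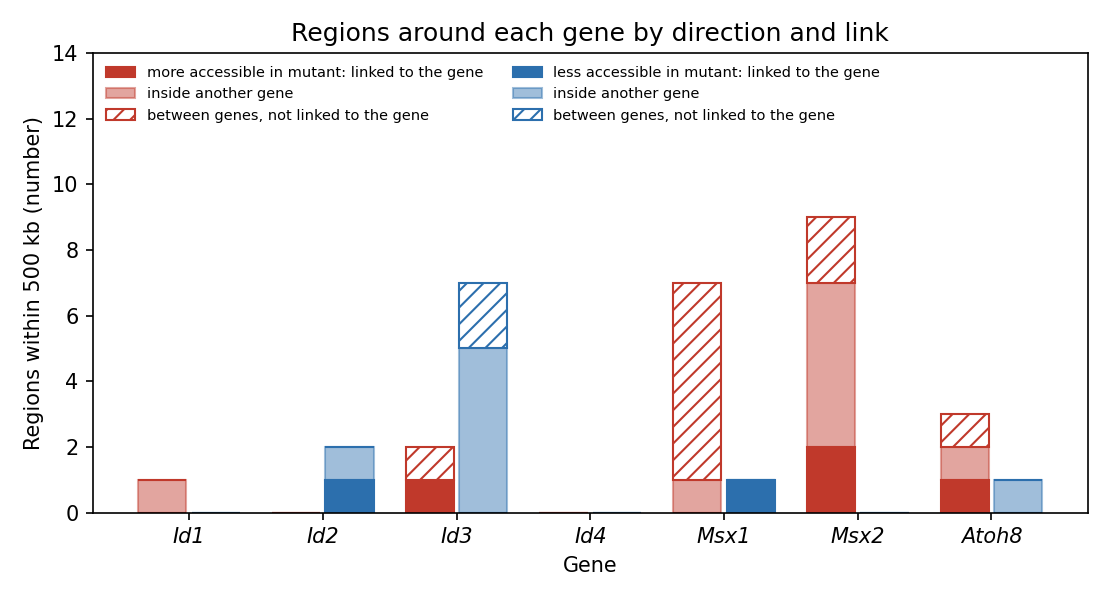
Number of listed regions within 500 kb of each gene by direction (red, more accessible in mutant; blue, less accessible), divided into those linked to the gene, those inside another gene and those between genes that were not linked to it. Msx2 has 9 and Msx1 has 7 more accessible regions, and Id3 has 7 less accessible ones.

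How the counts built up with distance differed between the directions. Within 100 kb of the spans there were 7 more and 3 less accessible regions, and within 250 kb 18 and 4. Between 300 and 400 kb the less accessible count went from 5 to 10, and these 5 regions are the 4 inside Luzp1 and, 305 kb from Id3, that linked to Htr1d. At 1 Mb the counts were 31 and 13.

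**Figure D3:**
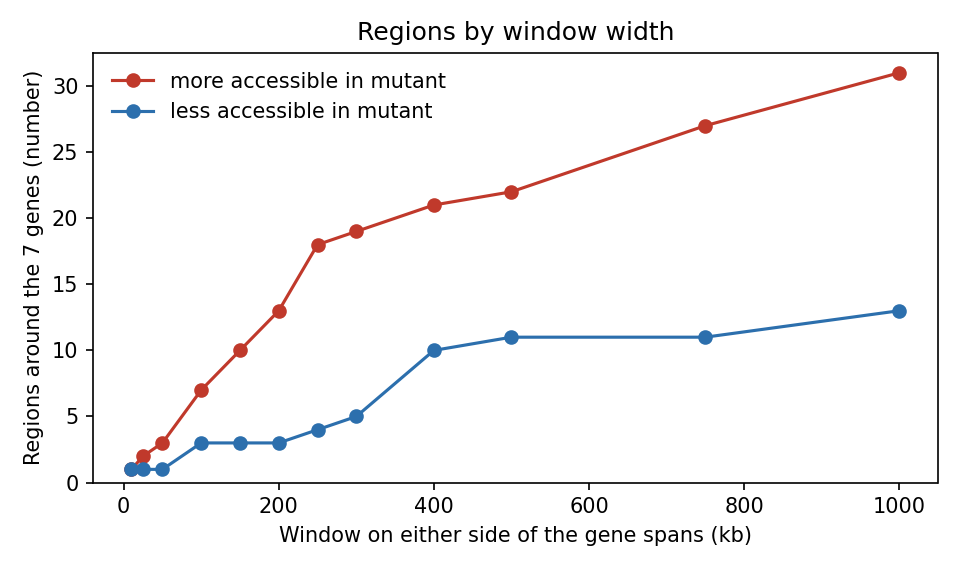
Number of listed regions around the 7 genes together against the width of the window on either side of the gene spans in kb, for more accessible (red) and less accessible (blue) regions. The blue line goes from 5 at 300 kb to 10 at 400 kb, where the Luzp1 regions near Id3 enter.

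Set among all protein-coding genes, Id3, Msx1 and Msx2 had the counts that the fewest genes reached, 0.0777% for the less accessible count of Id3 and 0.987% and 0.251% for the more accessible counts of Msx1 and Msx2. The median gene had 0 more and 0 less accessible regions within 500 kb, the means were 1.03 and 0.342, and the highest counts 13 and 8. The less accessible count of Id2, 2, was reached by 5.62% of genes, and the more accessible counts of Atoh8, 3, and of Id1, 1, by 13.3% and 49.9%. Id4, with 0 and 0, shared its counts with 39.2% of genes. Neighbouring genes reached the high counts of Id3, Msx1 and Msx2 as well.

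**Figure D4:**
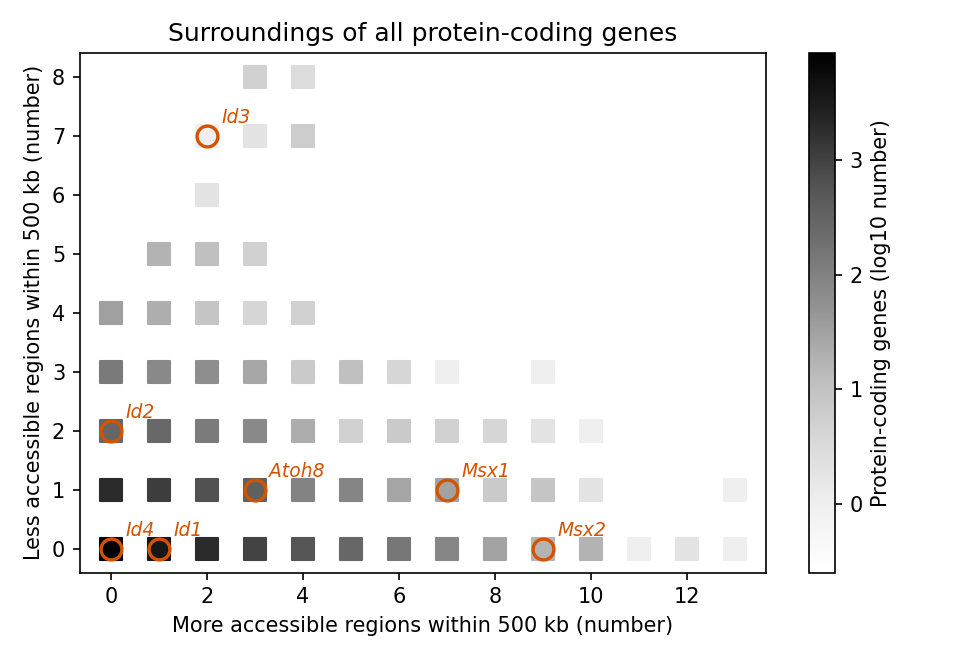
Each grey square is a pair of counts, more accessible (horizontal) and less accessible (vertical) regions within 500 kb, shaded by the log10 number of protein-coding genes with that pair; orange circles mark the 7 genes. Id3 stands at 2 and 7, Msx2 at 9 and 0, and Msx1 at 7 and 1.

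Other genes of the pathway were counted in the same way, beside the 7.27% of all genes with a more accessible and 1.99% with a less accessible link, in lists where 84.2% of all regions are more accessible. Among 20 feedback and other target genes 5 had a linked more accessible region and 0 a less accessible one. They were Smad6, an inhibitory SMAD (36.3 kb away), Bambi, a pseudoreceptor (84.7 kb), Bmper, a secreted BMP modulator (3 regions), Runx2, the osteoblast transcription factor (2 regions), and Dlx6, a homeobox gene (61.4 kb). Among 21 ligands, receptors and SMADs 7 had more accessible and 2 less accessible links. The former were the receptor genes Bmpr2, Bmpr1a and Bmpr1b, each with a region inside the gene, the ligand genes Bmp2 (3.55 kb away), Bmp4 (76.5 kb) and Bmp5 (2 regions), and the co-receptor gene Rgma. The latter were Bmp6 and again Rgma, which had a region of each direction at 76 and 45.7 kb. Acvr1 was among the genes without a link.

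Among the partners of the ID proteins 7 of 11 genes had no link. Of the 11 E protein and partner genes 4 had more accessible and 0 had less accessible links, with 2 regions each at Tcf4, an E protein gene, and Twist2, and 1 each at Tcf12, an E protein gene, and Hand2. The remaining family genes Msx3, Atoh1 and Atoh7 had no linked region. Over these 4 lists, 16 of 55 genes had a more accessible link and 2 a less accessible one, and among the 7 members 3 and 2. A count of 0 less accessible links in a list of 11 or 20 genes is close to the 1.99% of all genes. The lists were chosen with earlier results of these data known, and no test was made on them.

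**Figure D5:**
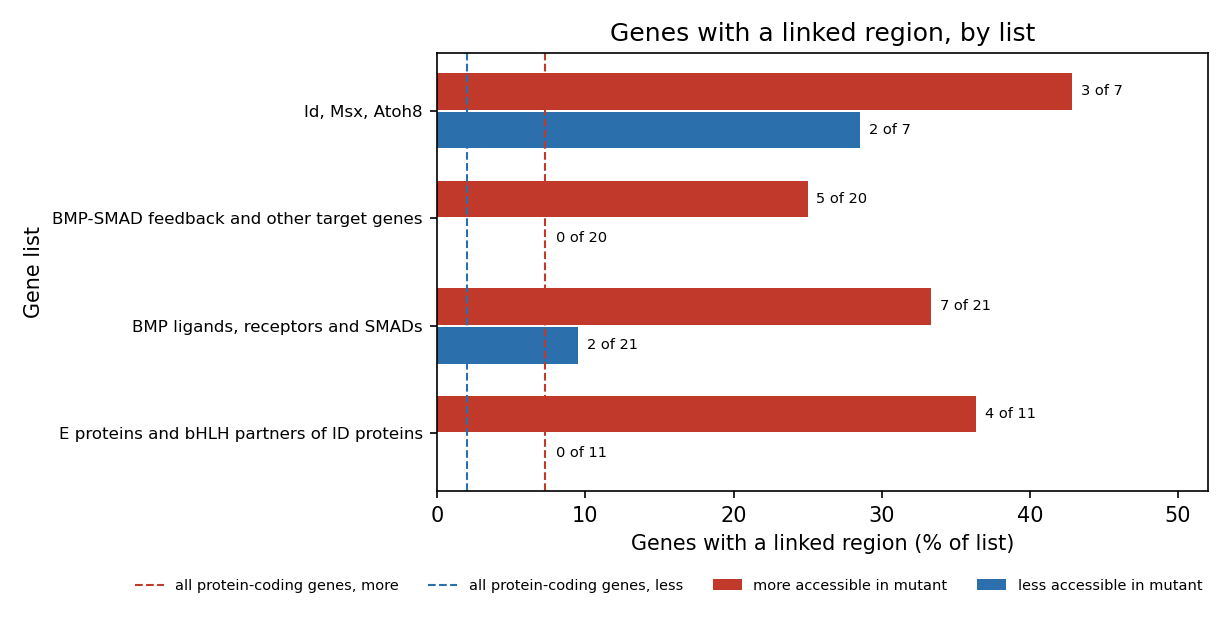
Share of the genes of each list with a linked more accessible (red) or less accessible (blue) region, in percent, with the number of genes beside each bar; dashed lines give the share over all protein-coding genes, 7.27% and 1.99%. Less accessible links occur at 2 of 7 members and at 2 of 21 ligand, receptor and SMAD genes, and at 0 of the genes of the remaining lists shown.

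For each member with a link, the genes of these lists with the same linked counts were ordered by the summed difference of their counts within 500 kb. Dlx6 had the same 4 counts as Atoh8 (3 more and 1 less accessible within 500 kb, difference 0). Runx2 was the nearest to Msx2, with 10 and 0 (difference 1), and was followed by Twist2 with 6 and 0 (difference 3). For Id3 the nearest was Smad6 with 2 and 1 (difference 6), the least of 10 candidates. Bmp6, with 2 and 1, was the sole candidate for Id2 (difference 3) and for Msx1 (difference 5).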

How the data were processed

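ATAC-seq had been made from 3 wild-type and 3 FOP mutant libraries of mouse embryonic fibroblasts. The authors deposited a pair of region lists in base pair positions, with no other unit. Per the submitters' processing notes, the tools were Bowtie2, Trimmomatic, SAMtools, bedtools, MACS2, DESeq2 and featureCounts, with builds mm10 and GRCm38. Not given in the sources used here are versions, cutoffs, how duplicates and the transposase offset were handled, and whether libraries were pooled for peak calling. Direction came from each list's name. Depth per library is unknown, and the intervals given (exact Clopper-Pearson, 95%) cover counting error only.

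Genes, starts and promoter sequences came from RefSeq tables of GRCm38.p6 (21887 protein-coding genes, unplaced and mitochondrial ones left out; strand known for 6 of the 7 members). Region midpoints were linked to genes within 100 kb and counted within 500 kb of gene spans, with Python 3.11.15 and pandas 2.3.3. Linking was tested on simulated positions. Members, lists and thresholds were chosen with earlier results of these data known. The text names all members, the pathway-list genes with links, the genes that take nearby regions, and the pathway genes of most similar counts. No test between groups was made.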

Additional observations from a re-analysis of the deposited data

How the results depend on the processing

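Of 49 values recomputed under alternatives, 37 moved by no more than 1.5 times (for the share, stayed within its interval) and 12 moved further. With links limited to 10 kb, 1 more accessible region at 1 member (Id3) and 1 less accessible region at 1 member (Msx1) remained. With all annotated genes competing, 0 regions of either direction were linked to 0 members, because long non-coding RNA genes lay nearer. The less accessible count within 500 kb was 11; it was 4 with a window of 250 kb, 7 with regions of at least 500 bp, and 4 without Id3, a setting added after the data were seen. Without Id3 the more accessible share was 83.3%, and with a window of 250 kb it was 81.8%. The direction of each member's links was that of the report wherever a link remained; with regions of at least 500 bp Atoh8 had none, and with links at any distance Msx2 had 3. The lists give no score, so a stricter threshold was not run, nor was leaving out a replicate. No paired analysis was possible because the lists hold no value per library. Depth per library is unknown, so sites too shallow to be called cannot be told from sites that did not change.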
